A study of Mus musculus with 60 samples.

Results

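Nr1d1, Nr1d2 and Rora encode the nuclear receptors REV-ERBα, REV-ERBβ and RORα. They were the 3 of the 53700 gene rows of the count table whose Ensembl identifiers (ENSMUSG00000020889, ENSMUSG00000021775 and ENSMUSG00000032238) are named so, and all 3 passed the filter on low counts. RNA was sequenced from hearts of male C57BL/6 mice that had received doxycycline from 10 weeks of age, first by injection and then in the diet, and were collected at 12 weeks. dnOGAh mice carried TRE-EGFP-dnOGA, a doxycycline-responsive transgene with a rat splice variant of O-GlcNAcase that acts as a dominant negative, together with αMHC-rtTA, which drives the transactivator from the cardiomyocyte α-myosin heavy chain promoter. CON mice carried αMHC-rtTA alone and received the same doxycycline. Zeitgeber time (ZT) counts hours from lights on. Hearts were taken every 4 h over a day, from ZT0 to ZT20, 5 of each genotype at a time and 60 in all, and ZT0 stands for those labelled ZT24. Each library was taken as 1 heart, since its label names a genotype, a time and a replicate number. The transgene is driven in cardiomyocytes, whereas the RNA came from all cells of the tissue.

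REV-ERBα and REV-ERBβ are heme-binding receptors that lack the helix with which other nuclear receptors recruit co-activators. They recruit NCoR and HDAC3 and repress transcription. RORα binds the same DNA element, an AGGTCA core preceded by an A/T-rich stretch, and activates transcription. Competition at these elements sets the daily rhythm of Arntl (Bmal1), and BMAL1 with CLOCK or NPAS2 in turn drives Nr1d1 and Nr1d2 through E-boxes. The receptors thus form the stabilizing loop of the circadian clock, which in the heart also governs metabolic genes.

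The bases just upstream of the RefSeq start of each receptor gene are shown because the receptors are themselves clock targets. The window of Nfil3 is shown because, of the clock target windows searched, it alone matched TAGGTCA or TGGGTCA. Each run is the 250 bases before the start on the gene's strand, from the RefSeq promoter table (GRCm38.p6, which is not the build of the counts). Capitals mark matches to the motifs searched on both strands. These were CACGTG and CACGTT (E-boxes), TAGGTCA and TGGGTCA (short forms of the ROR/REV-ERB element), AGGTCA (the core, contained in TAGGTCA) and TTATGTAA (D-box). The A/T-rich stretch before the core was not searched. The windows lie at chr11:98775378-98775627 (minus strand), chr14:18239107-18239356 (minus), chr9:68653536-68653785 (plus) and chr13:52981040-52981289 (minus).
Nr1d1: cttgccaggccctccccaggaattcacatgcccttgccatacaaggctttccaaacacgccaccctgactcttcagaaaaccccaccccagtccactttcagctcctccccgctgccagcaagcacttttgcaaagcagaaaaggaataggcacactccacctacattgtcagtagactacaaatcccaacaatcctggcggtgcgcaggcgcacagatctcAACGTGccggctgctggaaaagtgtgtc
Nr1d2: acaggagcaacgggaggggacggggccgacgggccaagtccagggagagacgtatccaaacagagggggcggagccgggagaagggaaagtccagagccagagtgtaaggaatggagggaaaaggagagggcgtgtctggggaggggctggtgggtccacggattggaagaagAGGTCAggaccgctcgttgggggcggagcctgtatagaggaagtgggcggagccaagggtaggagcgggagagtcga
Rora: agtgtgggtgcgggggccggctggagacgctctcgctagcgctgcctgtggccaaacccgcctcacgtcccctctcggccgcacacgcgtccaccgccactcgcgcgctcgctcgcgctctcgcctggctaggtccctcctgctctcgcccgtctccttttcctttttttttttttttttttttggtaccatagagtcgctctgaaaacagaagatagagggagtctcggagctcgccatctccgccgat
Nfil3: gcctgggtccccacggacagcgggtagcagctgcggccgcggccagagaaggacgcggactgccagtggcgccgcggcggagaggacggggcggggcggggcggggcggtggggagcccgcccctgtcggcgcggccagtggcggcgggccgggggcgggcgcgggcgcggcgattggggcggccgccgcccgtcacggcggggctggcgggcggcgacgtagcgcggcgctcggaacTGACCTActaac
In the Nr1d1 window CACGTT was found once, on the opposite strand of the printed run, with its first printed base 28 bases before the RefSeq start. For Nr1d1 the printed orientation rests on the strand column of the RefSeq table alone, since no stretch of the run was found in the GENCODE transcripts of the gene. It was found in 3.85% of the 32851 RefSeq windows of this length. The Nr1d2 window held AGGTCA 77 bases before the start, as did 14.0% of all windows. No searched motif was found in the Rora window. The Nfil3 window held TAGGTCA on the opposite strand, 12 bases before the start, as did 2.23% of windows. A match in such a window is a description of letters, and elements further away were not searched.

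Depth ranged from 9162859 to 82938039 counts per library, and the members had between 70 and 6536 counts in any library. Levels are given in CPM, counts relative to 1e+06 counts of the library after TMM scaling. Oga, which encodes O-GlcNAcase and stands under its older symbol Mgea5, had 59.3 ± 6.02 CPM in CON and 472 ± 192 in dnOGAh hearts (SD, n = 30 each). Reads of the transgene may be included in it, which was not tested. The library labelled dnOGAh ZT12 replicate 3 had 70.1 CPM of Oga. The remaining 29 libraries of that genotype had 182.3 to 837 CPM, and CON libraries 46.7 to 72.2 CPM. Replicate 4 at ZT4 stood apart in each genotype, with 77.6% of its counts from mitochondrial genes in CON and 66.0% in dnOGAh, where the remaining libraries had 22.8% to 35.2% in CON and 8.15% to 23.5% in dnOGAh. The median share was 30.7% in CON and 17.2% in dnOGAh hearts, so it differed with genotype. For the members and Arntl, test results that changed without these 3 libraries are given both ways. The other gene lists and the cell markers were not examined without them.

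Nr1d1 and Nr1d2 mRNA exhibited 24 h oscillations in hearts of both genotypes, whereas Rora varied little over the day. JTK_CYCLE, a rank test of 24 h rhythmicity, called 2 of the 3 members in CON and 2 in dnOGAh hearts, at Benjamini-Hochberg q values below 0.05 over the 18119 tested genes. Over all tested genes it called 2.13% in CON and 0.171% in dnOGAh hearts. The q values of Nr1d1 were 4.57e-05 in CON and 0.000443 in dnOGAh hearts. Those of Nr1d2 were 3.11e-05 and 0.00769, and those of Rora 0.732 and 1. In dnOGAh hearts the Nr1d2 call was lost without replicate 1, 2, 3 or 4, with q values up to 0.262. It held without the 3 libraries that stood apart (q = 0.00867).

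**Figure D1:**
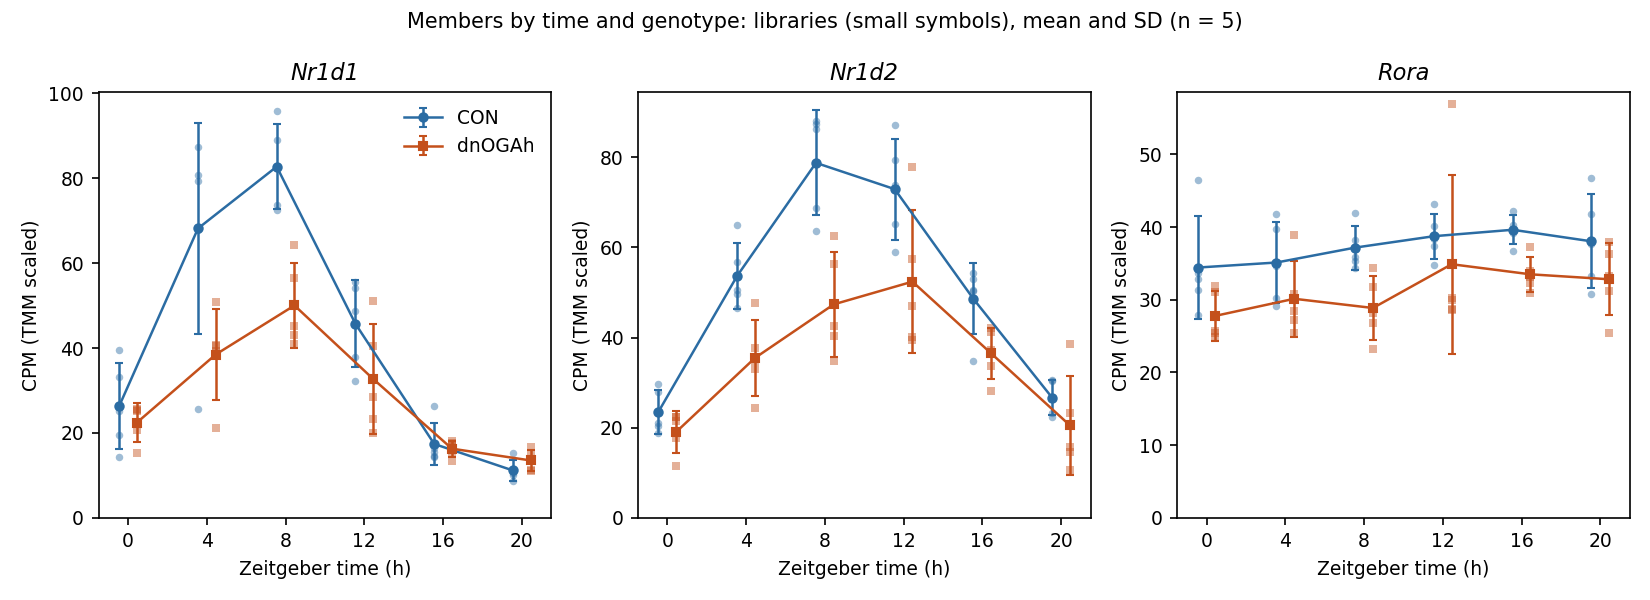
Level of each member in every library by Zeitgeber time, with the mean and SD of 5 hearts (CPM after TMM scaling on the y axis, hours on the x axis). Nr1d1 and Nr1d2 peaked in the light phase or at its end in both genotypes, with lower peaks in dnOGAh hearts, and Rora was nearly flat, apart from 1 dnOGAh library at 56.9 CPM.

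Nr1d1 encodes REV-ERBα, the receptor with the deepest rhythm of the 3. At ZT8, where its mean was highest, the CON hearts had 72.5, 73.6, 82.6, 89.0 and 96.0 CPM and the dnOGAh hearts 41.1, 43.2, 45.1, 56.5 and 64.3. Every CON heart was thus above every dnOGAh heart at this time. At ZT20, where the mean was lowest, the CON hearts had 8.61, 10.1, 10.5, 11.3 and 15.3 CPM and the dnOGAh hearts 11.0, 11.2, 13.4, 15.2 and 16.7. Here the dnOGAh values lay slightly higher and the groups overlapped. The ratio of the highest to the lowest mean was 7.42 in CON and 3.702 in dnOGAh hearts.

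At ZT4 the CON hearts had 25.6, 67.8, 79.4, 80.8 and 87.3 CPM of Nr1d1 and the dnOGAh hearts 21.1, 39.3, 40.5, 40.6 and 50.9. The lowest value of each genotype came from its library with the high mitochondrial share, and apart from these the groups did not overlap. At ZT12 the CON hearts had 32.1, 37.9, 48.8, 54.1 and 55.5 CPM and the dnOGAh hearts 20.1, 23.4, 28.4, 40.6 and 51.1. The lowest of these, 20.1, was that of the library with CON-like Oga, and the groups overlapped. At ZT16 the CON hearts had 14.2, 14.6, 15.4, 16.5 and 26.3 CPM and the dnOGAh hearts 13.4, 15.6, 16.9, 17.6 and 18.1. At ZT0 the CON hearts had 14.4, 19.5, 25.2, 33.2 and 39.5 CPM and the dnOGAh hearts 15.3, 20.8, 25.2, 25.3 and 25.7. At these last times the groups covered much the same range, with a wider spread in CON hearts at ZT0.

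Nr1d2 encodes REV-ERBβ, which overlaps with REV-ERBα in its targets. At ZT8 the CON hearts had 63.6, 68.7, 86.2, 87.3 and 88.0 CPM and the dnOGAh hearts 34.8, 40.4, 42.6, 56.4 and 62.5, with no overlap. At ZT12 the CON hearts had 59.0, 65.1, 73.9, 79.4 and 87.2 CPM and the dnOGAh hearts 39.5, 40.2, 47.1, 57.3 and 77.8. The value of 77.8 came from the library with CON-like Oga, and without it the groups did not overlap at ZT12 either. At ZT4 the CON hearts had 46.6, 49.7, 50.5, 56.8 and 64.9 CPM and the dnOGAh hearts 24.4, 33.0, 34.7, 37.6 and 47.6. The groups met only at their edges, where the 47.6 was that of the dnOGAh library with the high mitochondrial share. Unlike Nr1d1, Nr1d2 was not low in either of the libraries with a high mitochondrial share.

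At ZT16 the CON hearts had 34.8, 50.4, 50.5, 52.9 and 54.2 CPM of Nr1d2 and the dnOGAh hearts 28.2, 33.7, 37.3, 41.2 and 42.1. At ZT20 the CON hearts had 22.5, 23.2, 26.5, 30.3 and 30.7 CPM and the dnOGAh hearts 10.6, 14.5, 15.7, 23.2 and 38.5. At ZT0 the CON hearts had 18.8, 20.3, 21.1, 27.9 and 29.6 CPM and the dnOGAh hearts 11.5, 17.6, 21.5, 22.3 and 22.3. The groups overlapped at these times, and at ZT20 dnOGAh hearts held both the lowest and the highest value. The ratio of the highest to the lowest mean was 3.34 in CON and 2.75 in dnOGAh hearts, and 2.48 in the latter without the libraries that stood apart.

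Rora encodes RORα, the activator of the set. At ZT8 the CON hearts had 34.4, 35.4, 35.9, 38.3 and 41.9 CPM and the dnOGAh hearts 23.3, 26.8, 28.1, 31.8 and 34.4. The lowest CON value (34.38) was just below the highest dnOGAh value (34.40). At ZT12 the CON hearts had 34.8, 37.3, 38.3, 40.1 and 43.2 CPM and the dnOGAh hearts 28.7, 28.7, 29.97, 30.2 and 56.9. The value of 56.9 was again that of the library with CON-like Oga, and the other 4 dnOGAh hearts were below every CON heart. At the remaining times CON values lay between 27.9 and 46.8 CPM and dnOGAh values between 24.9 and 38.9, with overlap at each. The highest mean exceeded the lowest by a ratio of 1.15 in CON and 1.26 in dnOGAh hearts (1.17 and 1.21 without the libraries that stood apart).

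To compare levels between genes, CPM were divided by the length of all annotated exons of a gene together (GENCODE M21). This length was 3077 bases for Nr1d1, 5409 for Nr1d2 and 13071 for Rora, and need not be that of the transcripts in the heart. Mean levels over the day in CON hearts were 13.6 CPM per kb for Nr1d1, 9.37 for Nr1d2 and 2.85 for Rora. In dnOGAh hearts they were 9.40, 6.51 and 2.40. Rora was the lowest of the 3 in all 12 groups. Nr1d1 was above Nr1d2 in 9 of the 12 groups, the exceptions being ZT16 and ZT20 in CON and ZT16 in dnOGAh hearts. At ZT16 in CON hearts, for example, the levels were 5.66 CPM per kb for Nr1d1 and 8.98 for Nr1d2. The place of Rora depends on the length used. In CPM its mean was above that of Nr1d1 at ZT0, ZT16 and ZT20 in both genotypes and at ZT12 in dnOGAh hearts.

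The order of levels over the day was tested between neighbouring times with edgeR's quasi-likelihood test. In CON hearts 3 of 18 comparisons passed an adjusted p of 0.05, where the step from ZT0 to ZT4 was called for 0.0442% of all tested genes and that from ZT12 to ZT16 for 0.0166%. For the other CON steps this share was 0.0276% (ZT4 to ZT8), 0.011% (ZT8 to ZT12), 0.0331% (ZT16 to ZT20) and 0% (ZT20 to ZT0). Nr1d1 rose 2.62-fold from ZT0 to ZT4 (adjusted p = 0.00324) and fell 2.61-fold from ZT12 to ZT16 (adjusted p = 0.00654). Nr1d2 rose 2.29-fold from ZT0 to ZT4 (adjusted p = 0.00587). The neighbouring levels of ZT4 and ZT8 were not told apart by the test, with adjusted p values of 0.792 for Nr1d1 and 0.386 for Nr1d2. Further steps in CON hearts had an unadjusted p below 0.05 with edgeR but did not pass. For Nr1d1 these were ZT20 to ZT0, ZT8 to ZT12 and ZT16 to ZT20. For Nr1d2 they were ZT4 to ZT8, ZT12 to ZT16 and ZT16 to ZT20. In dnOGAh hearts 0 of 18 comparisons passed with edgeR, and 7 had an unadjusted p below 0.05. The counts of 3 and 0 are thus not a test of a difference between genotypes. The share over all genes in dnOGAh hearts was 0.00552% from ZT0 to ZT4 and from ZT8 to ZT12 and 0% in the other steps. The corresponding dnOGAh steps were 1.72-fold for Nr1d1 (adjusted p = 0.245) and 1.86-fold for Nr1d2 (adjusted p = 0.231) from ZT0 to ZT4, and 2.01-fold lower for Nr1d1 from ZT12 to ZT16 (adjusted p = 1). The count of 3 went to 0 without replicate 1 and without replicate 2 and to 1 without replicate 3. Without the 3 libraries that stood apart 5 steps passed, including the fall of Nr1d1 from ZT12 to ZT16 in dnOGAh hearts by 1.13 on the log2 scale (adjusted p = 0.0215). No step of Rora passed in either genotype.

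Over all 6 times, all 3 members were lower in dnOGAh hearts by the quasi-likelihood test of edgeR. The log2 fold change was -0.49 ± 0.0882 for Nr1d2 (adjusted p = 2.51e-06), -0.35 ± 0.0987 for Nr1d1 (adjusted p = 0.0015) and -0.25 ± 0.0592 for Rora (adjusted p = 0.000198), each with its standard error. These correspond to levels 1.40-, 1.27- and 1.19-fold lower. Of all tested genes 31.9% were lower and 38.8% higher by this test, so a call of this kind was common, and the median log2 fold change was 0.06. The 3 differences kept their direction and their side of the threshold under every alternative that was run. In these bulk samples fewer cells of a type and less RNA per cell cannot be told apart. All 6 cardiomyocyte markers were lower in dnOGAh hearts, with a summed level of 29118 to 60810 CPM in CON and 16331 to 71880 in dnOGAh hearts, and all 6 fibroblast markers were higher, with sums of 874 to 1252 and 1286 to 8191 CPM. Endothelial markers were lower (5 of 5), with sums of 490.0 to 1528 and 239 to 1227 CPM, and no marker of these 3 lists was at 0 in any library. Atrial markers, with 2 of 3 lower, had sums from 6.54 to 1221 CPM in CON and from 15.8 to 1012 CPM in dnOGAh hearts. The mitochondrial share was also lower in most dnOGAh hearts, as given above. The part of the cell makeup and of the mitochondrial share in the members' lower levels was not tested.

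At single times 5 of the 18 member by time comparisons passed, all of them lower in dnOGAh hearts. Of all tested genes, 14.2% were lower at ZT4 and 21.2% at ZT8, the times of the 5 calls, and 18.9% at ZT0, 13% at ZT12, 17.7% at ZT16 and 16.3% at ZT20. The log2 fold change of Nr1d1 was -0.84 at ZT4 (adjusted p = 0.00494) and -0.73 at ZT8 (adjusted p = 0.0101). That of Nr1d2 was -0.61 at ZT4 (adjusted p = 0.0256) and -0.73 at ZT8 (adjusted p = 0.00387). That of Rora was -0.36 at ZT8 (adjusted p = 0.0347). The estimate was below 0 in 17 of the 18 comparisons, the exception being Nr1d1 at ZT20, at 0.28 (adjusted p = 0.389). The ranges of the hearts did not overlap in 2 of the 18, Nr1d1 and Nr1d2 at ZT8. Of all tested genes, 42% did not overlap at ZT8, and the shares at ZT0, ZT4, ZT12, ZT16 and ZT20 were 38.6%, 14.4%, 15.2%, 35% and 23.8%.

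**Figure D2:**
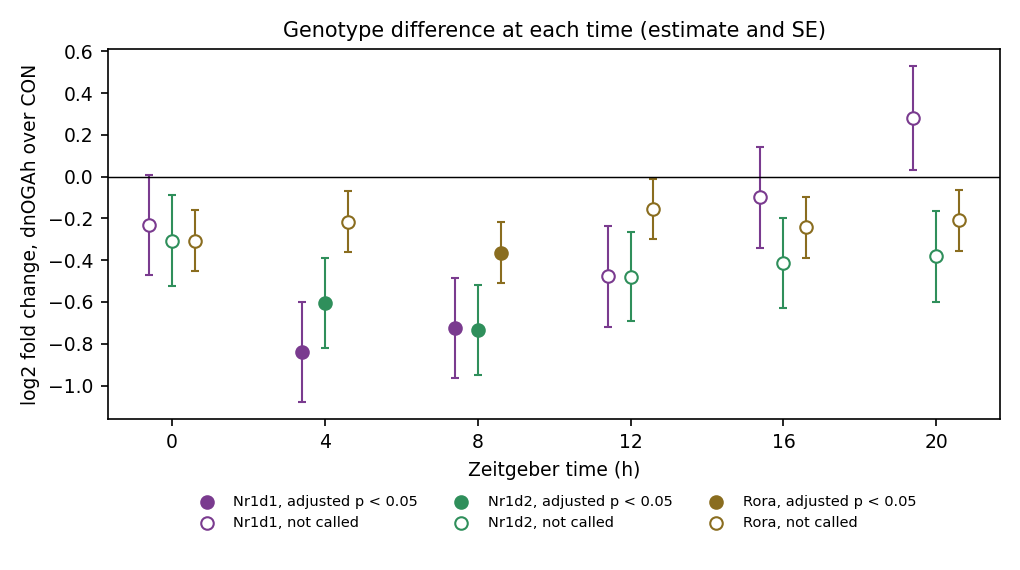
Log2 fold change of dnOGAh over CON at each Zeitgeber time with its standard error, filled where the adjusted p was below 0.05 (edgeR, n = 5 against 5). The 5 filled points are at ZT4 and ZT8, and Nr1d1 at ZT20 is the one estimate above 0.

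Without the 3 libraries that stood apart, 8 of the 18 comparisons passed instead of 5. Those added were Nr1d2 at ZT12 (log2 fold change -0.64, adjusted p = 0.0119), Rora at ZT12 (-0.38, adjusted p = 0.00905) and Rora at ZT0 (-0.29, adjusted p = 0.03). Leaving out the library labelled dnOGAh ZT12 replicate 3 alone also gave 8. The Rora call at ZT8 was lost with DESeq2 size factors (adjusted p = 0.0714), without the filter (0.0658) and with DESeq2's Wald test (0.0676), and without replicate 2, 3 or 5 (up to 0.166). Without replicate 1 or 2 the adjusted p of Nr1d1 at ZT8 was 0.0559 and 0.0525, and without replicate 1, 2 or 3 that of Nr1d2 at ZT4 was 0.09, 0.0598 and 0.235 (edgeR). The calls of Nr1d1 at ZT4 and Nr1d2 at ZT8 held under every alternative, with adjusted p values up to 0.0386 and 0.0349.

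The depth of the rhythm was described by a 24 h cosinor on log2 CPM. The amplitude of Nr1d1, the distance from mean to peak on the log2 scale, was 1.45 ± 0.113 in CON and 0.93 ± 0.0908 in dnOGAh hearts (standard errors, n = 30 each), a ratio of 0.638. The difference of -0.53 had a 95% interval from -0.82 to -0.24. That of Nr1d2 was 0.92 ± 0.0674 in CON and 0.80 ± 0.111 in dnOGAh hearts, with an interval of the difference from -0.38 to 0.14. Rora had amplitudes of 0.11 and 0.14. Nr1d1 peaked at 7.21 h in CON and 7.15 h in dnOGAh hearts, with an interval of the difference from -1.02 to 0.898 h. Nr1d2 peaked at 9.84 h and 10.2 h, with an interval from -0.846 to 1.55 h. The peak of Nr1d1 thus came before that of Nr1d2 in each genotype, by the point estimates.

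The test of a difference in rhythm between genotypes, fitted across all genes in edgeR, gave Nr1d1 an unadjusted p of 0.00183, rank 40 of 18119 genes, and an adjusted p of 0.794. Nr1d2 had an adjusted p of 1 (unadjusted p = 0.382), as had Rora (unadjusted p = 0.878). No member was therefore called, where 0.0166% of genes were. Over the alternatives the adjusted p of Nr1d1 ranged from 0.0791 without the filter to 1, and it was 0.184 without the 3 libraries that stood apart. The test of genotype by time interaction, which assumes no wave form, gave an adjusted p of 1 for each member, with an unadjusted p of 0.0205 for Nr1d1. The smaller Nr1d1 amplitude in dnOGAh hearts thus did not pass correction over all genes.

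The balance between members was read as the log2 ratio of CPM within each library, which does not depend on library scaling. Of the 18 comparisons (3 ratios at 6 times), 0 passed an exact two-sided permutation test after Benjamini-Hochberg adjustment, and 1 had an unadjusted p below 0.05. The smallest p that 5 against 5 allows is 0.00794, so a single comparison cannot adjust below 0.143 here and this count of 0 says little about the size of any one difference. That comparison was Nr1d1 to Nr1d2 at ZT20, where the mean log2 ratio was -1.26 ± 0.396 in CON and -0.47 ± 0.525 in dnOGAh hearts (SD, n = 5; exact permutation p = 0.0238, adjusted p = 0.31). The ratio of Nr1d1 to Rora moved from -1.77 at ZT20 to 1.15 at ZT8 in CON hearts and from -1.28 to 0.78 in dnOGAh hearts. That of Nr1d2 to Rora was lower in dnOGAh hearts at all 6 times, with differences from -0.03 at ZT0 to -0.40 at ZT4, and adjusted p values of 0.31 or more by the exact permutation test.

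Hearts of one group also differed from each other. Deviations of log2 CPM from the group mean were correlated over the 30 hearts of a genotype, in 9 relations with permutation p values (100000 permutations within time groups). In CON hearts Nr1d1 and Nr1d2 had a Pearson r of 0.22 (p = 0.286, adjusted p = 0.407) and a Spearman rho of 0.24 (p = 0.264, adjusted p = 0.368), and r was 0.10 without the hearts farthest from the median of Nr1d1. Rora had an r of -0.12 with Nr1d1 and -0.11 with Nr1d2 in CON hearts (permutation p = 0.639 and 0.636, adjusted p = 0.639 each), with rho of -0.11 and -0.15 (p = 0.607 and 0.473, adjusted p = 0.607 and 0.532) and r of -0.01 and -0.12 without the farthest hearts. None of these relations passed in CON hearts. In dnOGAh hearts Nr1d1 and Nr1d2 had an r of 0.20 (p = 0.316, adjusted p = 0.407) and a rho of 0.31 (p = 0.133, adjusted p = 0.24), and 0.54 without the farthest hearts. Without the libraries that stood apart this r became 0.62 (permutation p = 0.00046, adjusted p = 0.00207, n = 28), so that the low r over all 30 hearts rests on them. Nr1d1 and Rora had an r of -0.51 (p = 0.0235, adjusted p = 0.106) and a rho of -0.39 (p = 0.062, adjusted p = 0.199), where r became -0.24 without the hearts farthest from the median and -0.16 without the libraries that stood apart (permutation p = 0.434, adjusted p = 0.782). Nr1d2 and Rora had an r of 0.39 (p = 0.0587, adjusted p = 0.176) and a rho of 0.35 (p = 0.0903, adjusted p = 0.203), where r was 0.46 without the farthest hearts and 0.15 without the libraries that stood apart (permutation p = 0.599, adjusted p = 0.877).

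The Oga level varied between dnOGAh hearts of the same time, and Nr1d1 varied with it. The r of Oga and Nr1d1 deviations was 0.67 (permutation p = 0.00064, adjusted p = 0.00576) and rho 0.66 (p = 0.00086, adjusted p = 0.00774). It was 0.59 without the hearts farthest from the median of Oga and 0.65 without the libraries that stood apart (adjusted p = 0.00507 by permutation). Of the other 18118 genes, 1.11% had an r with Oga at least as high in these hearts, and the median over all of them was 0.06. dnOGAh hearts with more Oga thus had more Nr1d1 than others of their time, whereas dnOGAh hearts as a group had less Nr1d1 than CON hearts. The same r in CON hearts was -0.06, and the difference between genotypes was not tested. For Nr1d2 the r with Oga was 0.24 (p = 0.241, adjusted p = 0.407) with a rho of 0.38 (p = 0.0662, adjusted p = 0.199). It was 0.63 without the farthest hearts and 0.73 without the libraries that stood apart (permutation p = 0.0001, adjusted p = 0.00081). For Rora it was -0.47 (p = 0.104, adjusted p = 0.234) with a rho of -0.23 (p = 0.286, adjusted p = 0.368). It was -0.06 without the farthest hearts and 0.06 without those libraries. The values of a heart share its library and scaling. Deviations of the mitochondrial share correlated with those of Nr1d1 at r = -0.37 in dnOGAh and -0.61 in CON hearts, and with those of Oga in dnOGAh hearts at 0.09. For Nr1d2 this r was 0.44 in dnOGAh and -0.05 in CON hearts, and for Rora 0.40 and 0.19. These r values include the library with the high mitochondrial share in each genotype, and they were not computed without it. The labels used here name no sequencing batch.

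**Figure D3:**
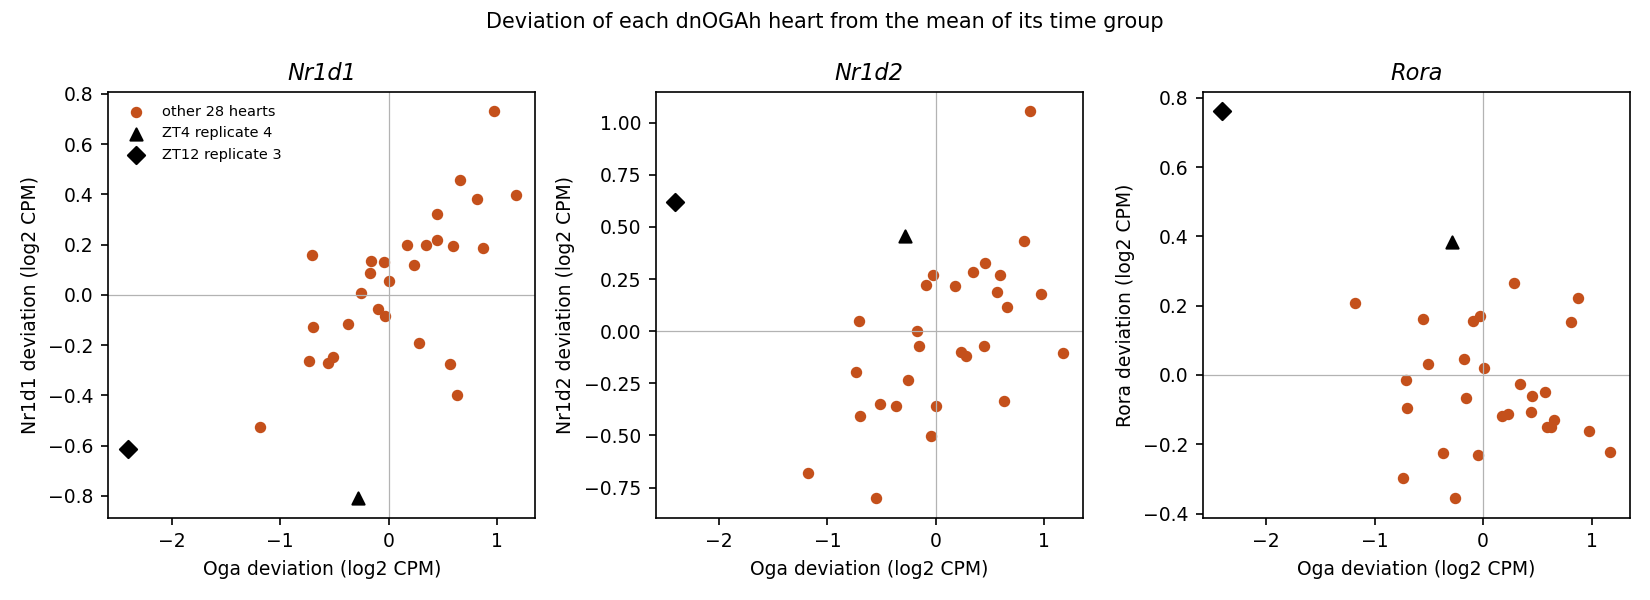
Deviation of each member (y axis) against that of Oga (x axis) in 30 dnOGAh hearts, both in log2 CPM from the mean of the time group, with the libraries that stood apart in black. Nr1d1 rises with Oga (r = 0.67), Nr1d2 does so when the black points are left out (r = 0.73), and the negative r of Rora (-0.47) rests on them.

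Clock genes with ROR/REV-ERB elements are repressed by the members Nr1d1 and Nr1d2 and activated by Rora. All 5 on the list oscillated in CON hearts and 4 of 5 in dnOGAh hearts, where 2.13% and 0.171% of all tested genes were called. Arntl, whose protein BMAL1 is the core activator, had its trough where the REV-ERB transcripts were high. At ZT12 its range was 0.654 to 2.08 CPM in CON and 0.855 to 3.87 CPM in dnOGAh hearts, where the lowest dnOGAh value was that of the library with CON-like Oga. At ZT8 it was 1.47 to 4.89 CPM in CON and 4.86 to 6.70 CPM in dnOGAh hearts. The log2 fold change was 1.16 at ZT8 (adjusted p = 0.000376) and 1.48 at ZT12 (adjusted p = 0.000118, edgeR), and at the other 4 times adjusted p values were 0.296 or more. Of all tested genes 24.9% were higher at ZT8 and 18.8% at ZT12. The cosinor gave Arntl an amplitude of 2.26 ± 0.127 in CON against 1.34 ± 0.117 in dnOGAh hearts (standard errors, n = 30 each). Arntl was 1 of the 3 genes of all tested with a called rhythm difference (adjusted p = 0.0178). That call was lost without replicate 1, 2, 4 or 5, with adjusted p values of 0.647, 0.374, 0.628 and 0.316 in edgeR, and held without the libraries that stood apart (0.000412). Without these libraries the log2 fold change at ZT12 was 1.71 (adjusted p = 1.48e-06). At ZT8 Nr1d1 and Nr1d2 were thus lower, and Arntl higher, in dnOGAh hearts as a group. The activator Rora was lower there as well (-0.36, adjusted p = 0.0347, edgeR), a call lost under some alternatives. Whether the change of Arntl followed from those of the members was not tested. The other genes on the list were not called at ZT8 by edgeR. Their log2 fold changes were 0.42 for Nfil3 (adjusted p = 0.0787), 0.10 for Clock (0.601), -0.11 for Cry1 (0.627) and -0.03 for Npas2 (0.946). Of the 30 gene by time comparisons on this list 5 were called. Outside Arntl, the differences called at single times were all lower in dnOGAh hearts, as given below. They were at ZT0 and ZT20, where 18.9% and 16.3% of all tested genes were lower.

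**Figure D4:**
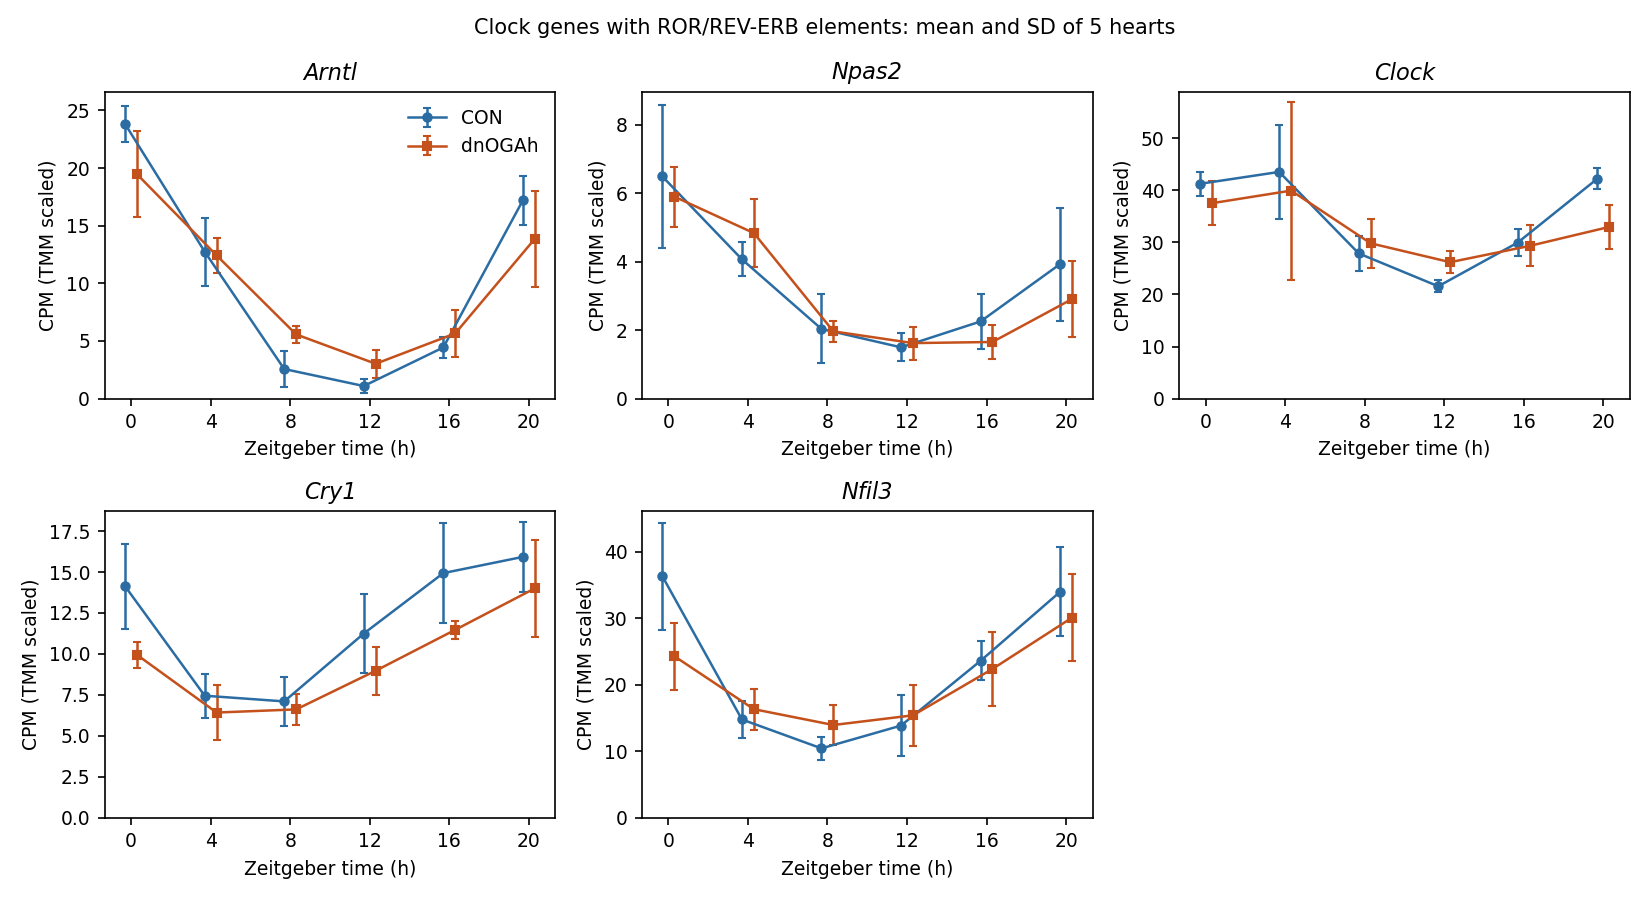
Mean and SD of 5 hearts for 5 clock genes with ROR/REV-ERB elements by Zeitgeber time (CPM after TMM scaling on the y axis). Arntl stays higher in dnOGAh hearts at ZT8 and ZT12, and the curve of Nfil3 starts lower in them at ZT0.

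Nfil3, which encodes the repressor E4BP4, oscillated in each genotype (q = 0.000239 and 0.012), with amplitudes of 0.94 and 0.56, and was lower in dnOGAh hearts at ZT0 (log2 fold change -0.58, adjusted p = 0.0133). Cry1, whose protein represses CLOCK and BMAL1, was lower over the day by a log2 fold change of -0.29 (adjusted p = 0.00013), and at the single times it was lower at ZT0 (-0.51, adjusted p = 0.00977). Npas2 oscillated in each genotype (q = 0.00036 and 0.01), and its log2 fold change of -0.11 did not pass (adjusted p = 0.403). Clock oscillated in CON (q = 0.000634) and was not called in dnOGAh hearts (q = 0.145), and its log2 fold change over the day was -0.04 (adjusted p = 0.511), with -0.36 at ZT20 (adjusted p = 0.0392). Whether rhythms called in CON hearts alone differ between genotypes was tested by the rhythm difference, with adjusted p values of 1 for these genes other than Arntl.

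Of the other genes reported as REV-ERB or ROR targets in various tissues, 8 of 11 passed the filter, 4 were higher, 2 lower and 2 did not pass, where 38.8% of all tested genes were higher and 31.9% lower. The higher genes were Ccl2 (log2 fold change 4.12), a monocyte chemokine, Nlrp3 (3.08), an inflammasome sensor, Cx3cr1 (2.57), a chemokine receptor of macrophages, and Il6. The cytokine gene Il6 was near the limit of detection in CON hearts (mean 0.0633 CPM, highest 0.496 CPM). Its mean was 1.71 CPM in dnOGAh hearts, and it was at 0 in 19 of the 60 libraries. Il6 passed the filter through the dnOGAh libraries, so its call is a description only, though the count of 4 and the list median include it. Nlrp3 was low in CON hearts too (0.313 CPM) and at 0 in 7 libraries. The lower genes were Lpl (-1.39), which encodes lipoprotein lipase, and Ulk1 (-0.76), a kinase that starts autophagy. Of the macrophage markers 4 of 5 were higher too, with sums of 104.8 to 192 CPM in CON and 229 to 1285 CPM in dnOGAh hearts, and none at 0 in any library. Their part in these values was not tested. The median of the list was 1.46, beside 0.06 over all tested genes.

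Heme is the ligand of the REV-ERB receptors, and its binding strengthens the recruitment of co-repressors. All 9 genes of heme synthesis were lower in dnOGAh hearts, where 31.9% of all tested genes were, with a median log2 fold change of -0.69. The 6 cardiomyocyte markers were all lower too, with a median of -1.06. The largest changes were those of Alad (-1.34), Uros (-1.23) and Alas1 (-1.09), the rate-limiting first enzyme of the pathway outside erythroid cells, which had 238 CPM in CON and 112 CPM in dnOGAh hearts. The erythroid enzyme Alas2 had -0.75, and the 3 globin markers of red cells were lower as well, with sums of 125.9 to 1003 CPM in CON and 42.3 to 484 CPM in dnOGAh hearts. The part of these cell types in the values was not tested. JTK_CYCLE called no gene of the list in either genotype, beside 2.13% of all tested genes in CON and 0.171% in dnOGAh hearts.

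Co-repressors serve the REV-ERB receptors. The counts of this paragraph stand beside 31.9% lower and 38.8% higher over all tested genes. Of 5 co-repressor genes 2 were lower, Gps2 (-0.25) and Hdac3 (-0.22), the deacetylase that REV-ERBα recruits, and Tbl1x was higher (0.14). Ncor1 (-0.24, adjusted p = 0.177, edgeR) did not pass. Its values spread widely, from 117 to 925 CPM in CON (mean 161) and from 87.9 to 729 CPM in dnOGAh hearts (mean 136). Of 7 co-activators used by ROR receptors 4 were lower and 1 higher. Ppargc1a, which encodes PGC-1α, had -0.86, Ppargc1b -0.44, and Ncoa1 and Ncoa2 -0.40 each. Among 7 genes of receptor turnover, Cdk1 (2.54), a kinase of dividing cells, and Spsb4 (0.33) were higher and Fbxw7 (-0.72) and Huwe1 (-0.27) lower. Fbxw7 and Huwe1 encode ubiquitin ligase components that act on REV-ERBα.

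The genes that share the members' upstream inputs moved in mixed directions. Of the E-box-driven clock repressors, Cry2 (-0.73), Per3 (-0.58) and Cry1 (-0.29) were lower, Per1 (0.49) was higher and Per2 (-0.09, adjusted p = 0.513) did not pass. In CON hearts 5 of 5 oscillated and in dnOGAh hearts 4 of 5, with Per1 at q = 0.44, beside 2.13% and 0.171% of all tested genes. The D-box factors Hlf (-1.75), Dbp (-0.89) and Tef (-0.80), whose proteins activate through D-boxes, were lower. Among other nuclear receptors, Thrb (-0.91) and Thra (-0.51) were lower, and Rorb was near the limit of detection, at 0.715 CPM in CON and 0.663 CPM in dnOGAh hearts.

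Thra, the gene of thyroid hormone receptor α, ends on the strand opposite Nr1d1, and 263 exonic bases of the genes overlap in GENCODE M21, of 3077 in Nr1d1 and 4614 in Thra. The library kit keeps strand, but the strand setting of the counting was not given in the sources used here, so reads in the overlap are uncertain. Thra oscillated in CON hearts (q = 0.0115) with a mean between 70.8 CPM at ZT16 and 96.1 CPM at ZT8, and was not called in dnOGAh hearts (q = 0.481). Its ratio of highest to lowest mean was 1.36 in CON hearts, against 7.42 for Nr1d1. In CON ZT4 replicate 4, where Nr1d1 was low (25.6 CPM), Thra was at 110 CPM, the highest of its group.

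The genes whose log2 CPM followed each member most closely over the 60 libraries, among 13762 with a mean of at least 1 CPM, are given as a description, since all points share times of day, genotype and libraries. Nr1d2 was most like repressor and output genes of the clock. The highest Pearson r was with Dbp (0.95, and 0.96 within the 30 CON libraries), then Per3 (0.88), Ciart (0.80), a repressor of CLOCK and BMAL1, Tef (0.79) and Ppat (0.73). The lowest were with Phc2 (-0.84), Foxs1 (-0.79) and Arntl (-0.78). Nr1d1 was most like Srsf5 (0.75, and 0.78 within CON), which encodes a splicing factor, Hnrnpdl (0.74), Tmem86a (0.69), Stard3 (0.68) and Dbp (0.67), and least like Cry1 (-0.70), Nfil3 (-0.69) and Slco3a1 (-0.62). Dbp was thus among the 5 most alike genes of each REV-ERB transcript, but with a looser likeness to Nr1d1. Rora was most like Zbtb20 (0.78), Pde7a (0.78), Bfar (0.78), Klf9 (0.77) and Foxn3 (0.76), and least like Elmo2 (-0.80), Atf6b (-0.79) and Cerk (-0.78). Within the 30 CON libraries these r values of Rora were weaker, at 0.33 for Bfar and 0.43 for Zbtb20. Within the 30 dnOGAh libraries those of Bfar and Zbtb20 were 0.83 and 0.81, and 0.66 each without the 2 that stood apart. Without these 2, Foxn3 (0.58, against 0.35 in CON) and Cerk (-0.80, against -0.52) also stayed stronger in dnOGAh hearts. Pde7a (0.47, against 0.65 in CON), Klf9 (0.52, against 0.55) and Elmo2 (-0.50, against -0.65) were then weaker in dnOGAh hearts. Atf6b was nearly equal (-0.56, against -0.55 in CON). Over the 57 libraries left without those that stood apart, the r of Bfar was 0.73 and that of Zbtb20 0.76.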

How the data were processed

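RNA-seq of 60 mouse hearts (5 per genotype and time) was used. The deposited values are raw counts per Ensembl gene in 60 columns, which the authors made with Trim Galore 0.6.7, STAR 2.7.10b and HTSeq 2.0.2 on GRCm39, per the submitters' processing notes. The annotation release and the strand setting are not given in the sources used here. The 5 HTSeq summary rows were left out. Of the gene counts and summary rows together, no feature came to 3.61% to 14.3% and ambiguous to 3.14% to 7.13%. Reads not uniquely aligned came to 11.0% to 39.4% of the same total. Gene names came from a GRCm38 table and covered 52093 of the 53700 gene rows.

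The main tests used edgeR 4.0.16 (R 4.3.3) on the counts as deposited, after filterByExpr (minimum count of 10, leaving 18119 genes) and TMM scaling, in 12 genotype by time groups. The quasi-likelihood test was used for genotype, single times, neighbouring times, interaction and the genotype by cosine and sine terms. Oscillation was tested with JTK_CYCLE per genotype (period 24 h, 6 lags in steps of 2 h, Bonferroni correction over lags). Its null was the exact one for fully ordered time groups. It made no allowance for times that tie on the cosine, so the p values are not exact. p values were adjusted by Benjamini-Hochberg over all tested genes at 0.05. Cosinor values used log2 CPM with a prior count of 2. DESeq2 1.42.0 and limma 3.58.1 served for alternatives, and ratios and correlations were computed in Python 3.11.15. Scripts were tested on simulated data. Named genes were the members, all clock targets, up to 4 of each list by size of change among those that passed, and the 5 most and 3 least alike genes of each member. A gene named beyond these was chosen after its values were seen. The members and lists were chosen with earlier results of these data known, so no count of a list is independent evidence. Intervals give the uncertainty of estimates from these hearts and do not cover other cohorts. Some genes of the lists are not reported here.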

Additional observations from a re-analysis of the deposited data

Results flagged for a closer look

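Of the 36 groups of 5 hearts (3 members, 6 times, 2 genotypes), 3 held a library whose gap to the nearest other was above Dixon's critical value of 0.71 of the group's range. Chance flags about 1 in 20 groups. In CON ZT16 replicate 1, Nr1d1 was the highest of its group at 26.3 CPM (the next was 16.5), and Nr1d2 the lowest at 34.8 CPM (the next was 50.4). The same heart had 9.90 CPM of Cry1, against 14.7 to 17.7 in the other 4, and 40.3 CPM of Rora, within the group. In the library labelled dnOGAh ZT12 replicate 3, Rora was at 56.9 CPM (the next was 30.2), with 70.1 CPM of Oga, a level seen in CON hearts, and 0.855 CPM of Arntl, the lowest of its group.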

How the results depend on the processing

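The lower level of each member in dnOGAh hearts kept its direction and its call under all 15 alternatives, with log2 fold changes from -0.37 to -0.30 for Nr1d1, -0.53 to -0.46 for Nr1d2 and -0.29 to -0.22 for Rora. The member by time calls (5) became 8 without the 3 libraries that stood apart and 8 without dnOGAh ZT12 replicate 3 alone, and lay between 2 and 7 when 1 replicate number was left out. The calls between neighbouring times (3) became 5 without the 3 libraries and lay between 0 and 4 when 1 replicate number or that library was left out. The oscillation of Nr1d2 in dnOGAh hearts had q values between 0.0161 and 0.262 in those runs, which hold fewer hearts. All other oscillation calls of members kept their side of the threshold, as did all rhythm difference and interaction results. The estimate of Nr1d1 at ZT16 turned from -0.10 to 0.11 without replicate 1, and lay between -0.18 and 0.11 over those runs. Of the 9 correlations 1 was called, and 3 were without the 3 libraries. The r of Nr1d1 and Rora in CON became 0.0444 and that of Oga and Rora in dnOGAh hearts 0.0644, and the cause was not tested. Leaving out ZT4 replicate 4 of both genotypes was added after seeing the data, and changed no member by time call. The alternatives for Arntl and the likeness and ratios of means without the 3 libraries were added then as well, and the differences of Arntl at ZT8 and ZT12 held in each. The replicate numbers pair no samples by the labels: over the 30 same-time pairs the correlation of deviations ranged from -0.0983 to 0.551 (median 0.0329, 5 above 0.1), and 17 of 60 libraries were closest to their own number. Over the 1320 pairs of different number from different groups, at any time, the median was -0.0013, with 109 above 0.1. With the replicate block the log2 fold changes were -0.35, -0.49 and -0.25, and no call of a member changed. Over all genes, the count of rhythm differences was 3, and 325 without the filter, 12 without the 3 libraries and 0 to 7 when 1 replicate number or that library was left out. JTK_CYCLE counts were 386 in CON and 31 in dnOGAh hearts, and 104 to 222 and 4 to 17 without 1 replicate number, and 235 in CON without the filter. At single times the standard errors of Nr1d1 were 0.239 to 0.249 on the log2 scale, which limits what 5 hearts per group can show.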
